A study of Mus musculus with 8 samples.

Results

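The genes that encode interferon-γ and the Th17 effector cytokines were followed in naive CD4 T cells and in effector Th1, Th2 and Th17 cells. The 5 genes were chosen by symbol as the signature cytokine of Th1 cells, *Ifng*, and 4 cytokines made by Th17 cells, *Il17a*, *Il17f*, *Il21* and *Il22*, out of 23284 genes listed, and all 5 were among the 11198 genes that passed the filter on low values. *Ifng*, *Il17a*, *Il17f* and *Il22* passed only through the subset where each was highest. Their differences among the other groups could be tested for that reason alone. The cells came from DO11.10 Tg mice, in which the TCR of CD4 T cells recognizes an OVA peptide, and every group carried this transgene. Each of the 4 groups had 2 RNA sequencing libraries. The naive cells were splenic CD4 T cells sorted as CD44low and CD62Lhi, and sorted cells of this kind were stimulated with OVA peptide on irradiated splenocytes from which T cells had been removed, for 6 days, to make the 3 effector groups. Th1 cultures held an anti-IL-4 Ab at 1 μg/ml, IL-12 at 100 U/ml and a culture supernatant with IL-2 at 30 U/ml. Th2 cultures held the same IL-2 with IL-4 at 100 U/ml and an anti-IFN-γ Ab at 10 μg/ml. Th17 cultures held IL-6, IL-1β and IL-23 (10 ng/ml of each), with anti-IL-4 Ab and anti-IFN-γ Ab (10 μg/ml of each) and no IL-2 is named for them. Naive cells were not cultured, so culture and subset cannot be told apart in a comparison with them. All cells bear a transgenic TCR, and nothing in the sources used here says that replicates came from separate mice or cultures, so the p-values measure the spread between these libraries, which may be technical.

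Helper T cells release different cytokines according to the signals present when they are first activated. IL-12 acts through STAT4 and the T-box factor T-bet to open the *Ifng* gene, and IFN-γ then activates macrophages and induces antiviral and antigen-presentation genes. IL-6 and IL-23, which act through STAT3, and IL-1β together drive *Il17a* and *Il17f*, whose products recruit neutrophils. IL-22 acts on epithelial cells, which bear its receptor, whereas IL-21 acts on lymphocytes and is made by several helper subsets.

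The 5 genes lie in 3 places of the mouse genome, given here in the GENCODE annotation of GRCm38, the assembly also called mm10, which the submitters' processing notes name. *Ifng* lies at chr10:118441046-118445892 on the plus strand with 4 exons. *Il22* lies at chr10:118204942-118210047 on the plus strand with 5 exons, 231.0 kb from *Ifng*. *Il17a* lies at chr1:20730905-20734496 on the plus strand with 3 exons. *Il17f* lies at chr1:20777146-20790617 on the minus strand, 42.6 kb from *Il17a*, although the span in the deposited files ends at 20784270. *Il21* lies at chr3:37222759-37232636 on the minus strand. The stretches just before the start sites are shown because the comparisons turn on genes that were used by one subset and nearly silent in the others. They are the 250 bases before the RefSeq start in GRCm38.p6, all 5 being matched by symbol and written 5′ to 3′ on the strand of the gene. They span chr10:118440796-118441045 for *Ifng*, chr1:20730655-20730904 for *Il17a*, chr1:20784271-20784520 for *Il17f*, chr3:37232637-37232886 for *Il21* and chr10:118204714-118204963 for *Il22*. The RefSeq starts of *Il22* and *Il17f* lie inside the genes as given by GENCODE. The *Il22* stretch therefore runs past the GENCODE start at 118204942, and the *Il17f* stretch lies wholly inside the GENCODE span. Positions of matches count from the RefSeq starts. Capitals mark exact matches, on either strand, to the letters spelled out here. The letters AGGTGT stand for the core of a T-box site. The STAT site was searched as TTCNNNGAA, the AP-1 site as TGANTCA, and the TATA box that places the start of many inducible genes as TATAAA.
*Ifng*: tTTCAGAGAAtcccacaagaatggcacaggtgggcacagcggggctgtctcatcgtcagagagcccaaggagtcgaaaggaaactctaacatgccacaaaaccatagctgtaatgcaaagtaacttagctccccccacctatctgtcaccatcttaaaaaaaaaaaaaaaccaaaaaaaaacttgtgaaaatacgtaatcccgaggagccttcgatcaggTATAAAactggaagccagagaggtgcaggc
*Il17a*: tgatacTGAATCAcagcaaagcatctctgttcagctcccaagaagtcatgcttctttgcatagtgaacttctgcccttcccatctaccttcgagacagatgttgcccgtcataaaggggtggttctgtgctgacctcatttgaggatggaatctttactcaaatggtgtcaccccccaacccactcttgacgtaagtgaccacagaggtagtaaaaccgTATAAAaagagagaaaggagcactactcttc
*Il17f*: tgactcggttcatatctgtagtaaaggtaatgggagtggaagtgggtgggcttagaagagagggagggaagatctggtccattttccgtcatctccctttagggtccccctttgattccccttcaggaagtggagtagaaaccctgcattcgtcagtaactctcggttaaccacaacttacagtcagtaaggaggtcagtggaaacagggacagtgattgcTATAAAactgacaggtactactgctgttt
*Il21*: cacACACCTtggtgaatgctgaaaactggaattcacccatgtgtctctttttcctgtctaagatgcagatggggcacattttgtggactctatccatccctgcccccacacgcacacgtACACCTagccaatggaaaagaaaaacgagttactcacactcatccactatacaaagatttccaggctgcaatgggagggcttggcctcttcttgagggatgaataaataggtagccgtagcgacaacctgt
*Il22*: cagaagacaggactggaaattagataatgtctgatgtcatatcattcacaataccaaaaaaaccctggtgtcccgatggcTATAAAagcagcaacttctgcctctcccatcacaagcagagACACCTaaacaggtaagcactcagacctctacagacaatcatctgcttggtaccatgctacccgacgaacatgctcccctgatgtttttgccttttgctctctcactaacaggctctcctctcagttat

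The letters were searched from 250 bases before to 50 bases after the start, and the share that holds them was counted over 32851 mouse promoters of this length. The T-box letters were found at -247 and -131 before *Il21* and at -129 before *Il22*, against 13.74% of all promoters, and were not found in this window of *Ifng*. A STAT match stood at -249 of *Ifng* (8.30% of all promoters) and an AP-1 match at -244 of *Il17a* (7.81%). A TATA box stood at -30, -31 and -29 of *Ifng*, *Il17a* and *Il17f*, and at -170 of *Il22* (13.62%). The short NFAT letters GGAAA were searched as well, but 61.34% of all promoters held them, so they are not marked. None of these matches overlapped another. A match is a match of letters and not a measured site.

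Levels are given as FPKM, a fragment count corrected for transcript length and library depth. The deposited confidence intervals imply 14463466 to 21058286 fragments per library and, for each gene, a number of fragments behind its FPKM. In these libraries, 3 fragments of one of the 5 genes were worth 0.032 to 0.149 FPKM, and lower values were read as not detectable at this depth. The labels were checked against genes known to mark each subset. *Tbx21*, which encodes T-bet, was at 47.9 FPKM in Th1 and at 0.373 to 1.64 in the other groups. *Gata3*, the Th2 factor, was at 130 FPKM in Th2 and at 6.71 to 20.3 elsewhere. *Il23r*, of the Th17 programme, was at 28.9 and 30.3 FPKM in Th17 and at most 1.61 in the other libraries. *Cd4* was at 187 to 373 FPKM in every library, and *Cd8b1*, a CD8 T cell gene, at 52.8 and 90.5 in naive cells and at 8.77 to 12.9 in the effector libraries. NK cell genes, a possible other source of *Ifng*, summed to 0.672 and 1.01 FPKM in naive and 1.85 and 1.92 in Th1, over 5 of 5 genes listed. In Th2 they summed to 0.156 and 0.160 FPKM, and in Th17 to 1.15 and 1.65. *Ncr1* was at 0 in all 6 effector libraries. The others, *Klrb1c*, *Klra8*, *Klre1* and *Eomes*, were higher in both Th1 libraries than in either naive library. *Eomes* was at 0.819 and 1.07 FPKM in Th1 against 0.497 and 0.572 in naive. *Klrb1c* was at 0.625 and 0.302 FPKM in Th1 against 0.036 and 0.109 in naive. The part of NK cells in the *Ifng* values was not tested. Of the genes fixed for γδ T and innate lymphoid cells, a possible other source of *Il17a* and *Il22*, the 3 receptor genes *Trdc*, *Tcrg-C1* and *Tcrg-C2* were not analysed here. The other 3, *Il1rl1*, *Kit* and *Zbtb16*, summed to 0.471 and 0.777 FPKM in naive, 4.23 and 6.69 in Th1, 4.77 and 5.88 in Th2 as well as 1.75 and 2.58 in Th17. Their members differed, with *Il1rl1* at 0.295 and 0.488 FPKM in Th17 against 4.41 and 5.34 in Th2, and *Kit* at 1.43 and 2.06 in Th17 against 0.119 and 0.167 in Th2. *Kit* was higher in Th17 than in naive cells by 1.07 (limma adjusted p = 0.002655) and than in Th2 by 1.25 (adjusted p = 0.003186) on the log2(FPKM + 1) scale, and was at 2.27 and 3.76 FPKM in Th1. The part of such cells in the *Il17a* and *Il22* values was not tested. In bulk RNA, fewer cells that make a cytokine and less RNA in each of them cannot be told apart.

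*Ifng* was a Th1 gene in these cells. It stood at 802 and 614 FPKM in the 2 Th1 libraries, the 92nd and 113th highest of 23284 genes. In naive cells it was at 0.218 and 0.437 FPKM, in Th2 at 0 and 0.165, and in Th17 at 0.433 and 2.19. Both Th1 libraries lay far above every other library, and the naive values lay above those of Th2 and overlapped those of Th17. On the log2(FPKM + 1) scale, which understates the change of low genes, Th1 exceeded naive by 9.05 (SE 0.350, adjusted p = 1.316e-06), Th2 by 9.35 (adjusted p = 5.348e-06) and Th17 by 8.36 (adjusted p = 1.723e-05), by limma with Benjamini-Hochberg adjustment over the genes tested. Among all genes tested, *Ifng* had the largest excess of Th1 over Th2 and of Th1 over Th17. Of the 720 genes at 100 FPKM or more in Th1, 11.25% had a larger gap between the 2 Th1 libraries than the 0.38 of *Ifng*.

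The residual *Ifng* of the other groups was small and uneven. Th17 replicate 2, with 53 implied fragments, held most of it, and Th17 replicate 1 held 14, at the level of naive replicate 2. The Th17 excess over naive, 0.69 (95% interval -0.14 to 1.52, limma adjusted p = 0.1198), did not pass, and neither did that over Th2, 0.99 (0.15 to 1.82, adjusted p = 0.05841), which passed with the replicate number as a block (adjusted p = 0.04458) and with a pseudocount of 0.1 (adjusted p = 0.02169). Without Th17 replicate 1, the excess over naive was 1.27 (limma adjusted p = 0.004107) and that over Th2 was 1.56 (adjusted p = 0.006203). Without replicate 2 it was 0.12 over naive and 0.41 over Th2, so the *Ifng* value of Th17 cells rests on which library is used. Th2 and naive did not differ beyond their spread (-0.29, interval -1.13 to 0.54, limma adjusted p = 0.4801).

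**Figure D1:**
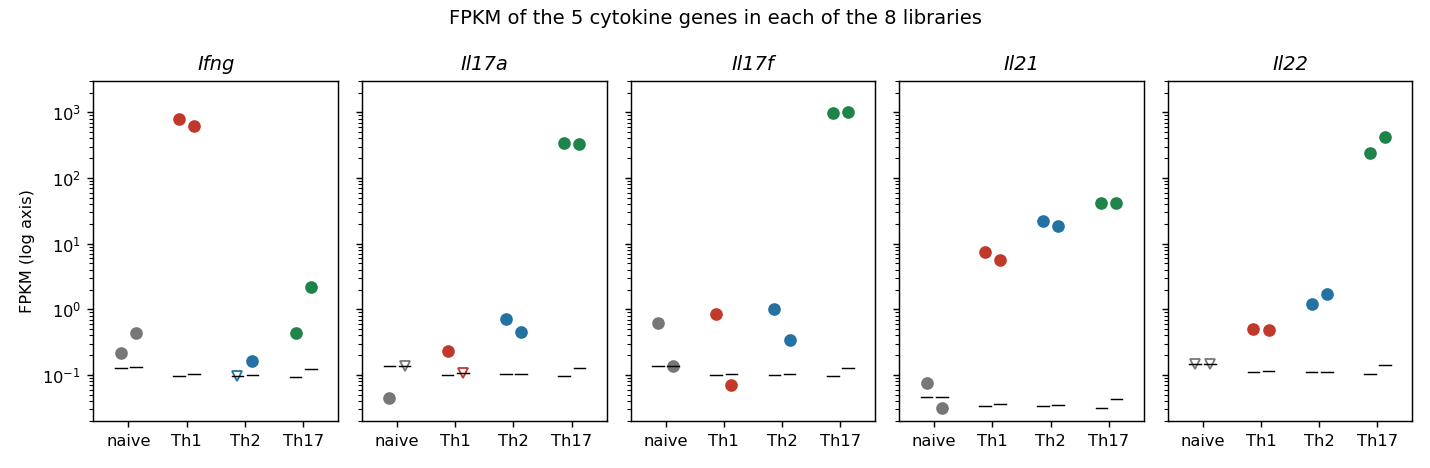
Points give FPKM on a log axis for each of the 2 libraries of naive, Th1, Th2 and Th17 cells, replicate 1 on the left, with 1 panel for each gene. Short black lines mark the FPKM that 3 fragments would give, and open triangles placed on them mark libraries listed at 0. *Ifng* is high only in Th1 (802 and 614), *Il17a*, *Il17f* and *Il22* only in Th17, and *Il21* steps up from Th1 (7.36 and 5.59) to Th2 (22.4 and 18.9) to Th17 (42.3 and 41.1).

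*Il17a* and *Il17f*, neighbours on chromosome 1 whose products pair as homo- and heterodimers, were both Th17 genes, and *Il17f* was the more abundant. *Il17a* stood at 347 and 335 FPKM in the Th17 libraries. In naive cells it was at 0.045 and 0, in Th1 at 0.235 and 0, and in Th2 at 0.711 and 0.446. The Th17 libraries stood apart from the others, and among the rest both Th2 libraries lay above the naive and Th1 libraries. *Il17f* stood at 979 and 1013 FPKM in Th17, the 74th and 66th highest of all genes. In naive cells it was at 0.628 and 0.135, in Th1 at 0.835 and 0.070, and in Th2 at 1.01 and 0.341. The naive, Th1 and Th2 values of *Il17f* overlapped, and no library of these groups came near the Th17 level.

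Per length, *Il17f* was 2.82 and 3.02 times as abundant as *Il17a* in the 2 Th17 libraries. Their longest transcripts in the span of the files were 55.51% identical and shared no stretch of 50 bases with each other or with any other gene. On the log2(FPKM + 1) scale, Th17 exceeded naive by 8.39 for *Il17a* (SE 0.135, limma adjusted p = 1.089e-07) and by 9.52 for *Il17f* (SE 0.309, adjusted p = 5.655e-07). The *Il17f* difference was the largest among all genes tested in each comparison of Th17 with another group. Both genes were steady between the Th17 libraries. Of the 695 genes at 100 FPKM or more in Th17, 84.0% had a larger gap between these libraries than *Il17a* and 84.5% a larger one than *Il17f*.

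*Il17a* passed the filter on low values only through its Th17 level. Outside Th17, it was slightly higher in Th2 cells. It exceeded naive there by 0.62 (limma adjusted p = 0.005032) and Th1 by 0.50 (Th1 minus Th2 -0.50, adjusted p = 0.02273), with 21 and 13 implied fragments in Th2 against 1 and 0 in naive and 7 and 0 in Th1. The second of these calls was lost without Th1 replicate 2 (-0.35) or without Th2 replicate 1 (-0.38), and the first under quantile normalization. For *Il17f*, no difference among naive, Th1 and Th2 passed. Th2 minus naive was 0.27 (95% interval -0.46 to 1.01, limma adjusted p = 0.4583), Th1 minus naive 0.04 (-0.69 to 0.78, adjusted p = 0.912) and Th1 minus Th2 -0.23 (-0.96 to 0.51, adjusted p = 0.5862).

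The low *Il17f* values followed the replicate number. In naive, Th1 and Th2 cells alike, replicate 1 lay above replicate 2. This order was not particular to *Il17f*. *Il17a* had it in Th1, at 0.235 and 0 FPKM, and in Th2, at 0.711 and 0.446. Its naive values, 0.045 and 0, rested on 1 and 0 implied fragments, under the 3 read as detectable, and give no order. *Il21* had the order in all 4 groups, with 5 and 2 implied fragments in naive. The order was reversed for *Ifng* in naive (0.218 and 0.437) and Th2 (0 and 0.165) and for *Il22* in Th2 (1.21 and 1.71). The genes fixed for neutrophils and their precursors, of which 4 of 5 were listed, summed higher in replicate 1 as well. Replicates 1 and 2 summed to 1.21 and 0.173 FPKM for naive cells, to 7.65 and 0.181 for Th1, to 6.52 and 0.043 for Th2 and to 7.28 and 0.545 for Th17, and *Mpo* and *Elane* gave most of the sum in replicate 1 of Th1, Th2 and Th17. Their part in the low *Il17f* values was not tested.

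*Il22*, on chromosome 10, was also high in Th17 alone, at 238 and 420 FPKM. Both naive libraries were listed at 0, where 3 fragments would give 0.148 and 0.149 FPKM. Th1 stood at 0.497 and 0.484, and Th2 at 1.21 and 1.71. The 4 groups did not overlap, in the order Th17, Th2, Th1 and naive. The Th17 excess was 8.31 over naive on the log2(FPKM + 1) scale (SE 0.249, limma adjusted p = 4.217e-07), 7.02 over Th2 (adjusted p = 6.601e-06) and 7.73 over Th1 (adjusted p = 5.803e-06). Th2 exceeded naive by 1.29 (adjusted p = 0.002849). The smaller steps from naive to Th1, 0.58 (95% interval -0.02 to 1.17, limma adjusted p = 0.07671), and from Th1 to Th2, with Th1 minus Th2 at -0.71 (-1.31 to -0.12, adjusted p = 0.05428), did not pass, and both passed with the replicate block (adjusted p = 0.04441 and 0.02931). Both passed as well without Th17 replicate 1 or without Th17 replicate 2 (adjusted p = 0.008019 to 0.008851), a group that is in neither comparison and enters only through the shared estimate of the spread.

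The 2 Th17 libraries differed in *Il22* more than in the other Th17 cytokines. The gap was 0.82 on the log2(FPKM + 1) scale, and 5.61% of the 695 genes at 100 FPKM or more had a larger one, the median being 0.16. Relative to *Il17a*, *Il22* was at 0.685 in replicate 1 and 1.25 in replicate 2, whereas *Il21* was at 0.122 and 0.123 of *Il17a*.

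*Iltifb*, a near copy of *Il22* that lies 79.6 kb away at chr10:118289629-118295038 on the minus strand, followed *Il22*. It was listed at 0 in both naive libraries and stood at 0.198 and 0.170 FPKM in Th1, at 0.741 and 0.714 in Th2 and at 123 and 194 in Th17. The longest transcripts of the pair were 97.3% identical, and 41.0% of the stretches of 50 bases of *Il22* also occur in *Iltifb*, so the split of reads between them is uncertain. *Il22* made up 65.9% and 68.3% of the summed FPKM of the pair, which was 361 and 614 in the Th17 libraries. With the pair summed, Th1 minus naive was 0.74 (limma adjusted p = 0.02388) and Th1 minus Th2 -0.92 (adjusted p = 0.01665), so both smaller steps passed. The 250 bases before their RefSeq starts were 54.7% identical, and the start used for *Il22* lies inside the gene as given by GENCODE.

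**Figure D2:**
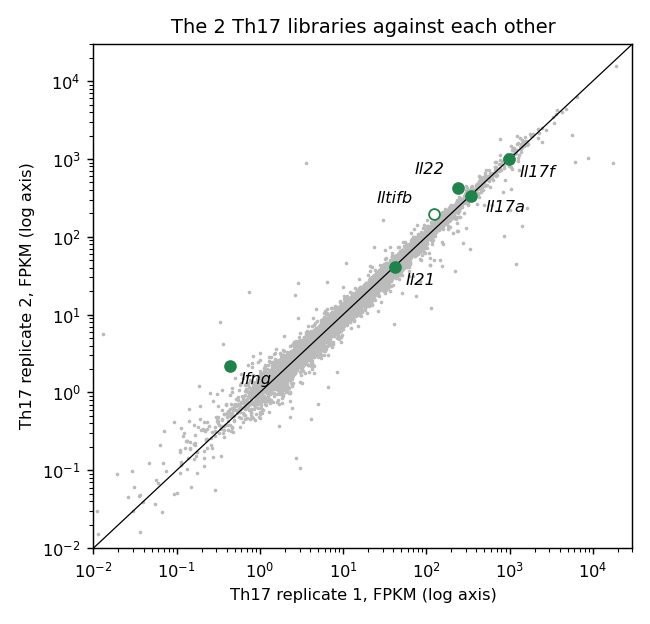
Each grey point is a gene with a mean of at least 1 FPKM and a value above 0 in both libraries, at its FPKM in Th17 replicate 1 (horizontal, log axis) and replicate 2 (vertical, log axis), with the line of equal values. *Il17a*, *Il17f* and *Il21* (filled) lie on the line, *Il22* (filled) and its near copy *Iltifb* (open) lie above it at 420 against 238 and 194 against 123 FPKM, and *Ifng* (filled, 2.19 against 0.433) lies above it among low genes.

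*Il21*, whose product supports B cells and Th17 cells themselves, was not restricted to one subset. It stood at 42.3 and 41.1 FPKM in Th17, 22.4 and 18.9 in Th2, and 7.36 and 5.59 in Th1. Naive cells were at 0.076 and 0.031, or 5 and 2 implied fragments. The 4 groups did not overlap, and every step in the order passed the test. On the log2(FPKM + 1) scale, Th1 exceeded naive by 2.82 (SE 0.137, limma adjusted p = 3.815e-06), Th2 exceeded naive by 4.35 (adjusted p = 4.849e-07) and Th17 exceeded naive by 5.34 (adjusted p = 2.882e-07). Th1 minus Th2 was -1.54 (adjusted p = 0.0001987), Th17 minus Th2 was 0.99 (adjusted p = 0.001815) and Th1 minus Th17 was -2.52 (adjusted p = 4.171e-05). In FPKM, Th17 held 2.02 times the mean of Th2 and 6.44 times that of Th1. An antisense gene that overlaps *Il21* in GENCODE was not analysed here, and the sources differ on whether the libraries kept the strand, so its reads could be counted for *Il21*.

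As 4 of the 5 genes were chosen as cytokines made by Th17 cells, counts and medians over the 5 lean to the Th17 comparisons. That lean comes with the choice of genes and is not read as a result. Th17 exceeded naive in 4 of 5 and fell below it in 0, where 37.5% and 29.8% of all genes tested were called higher and lower. Th1 exceeded naive in 2 of 5, *Ifng* and *Il21*, and was lower in 0 (33.8% and 33.5% of all genes), or in 3 of 5 with the replicate block, which adds *Il22*. Th2 exceeded naive in 3 of 5, *Il17a*, *Il21* and *Il22*, and was lower in 0 (31.8% and 38.7% of all genes). About 1 gene in 3 was called in each direction, so the Th1 and Th2 counts are given with nothing read from them. These 3 comparisons share the naive libraries, and the next 3 share libraries with one another as well.

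Between effector subsets, Th17 exceeded Th2 in 4 of 5 and was lower in 0, against 31.7% and 12.0% of all genes, and in 5 of 5 with the replicate block, which adds *Ifng*. Th1 exceeded Th17 in 1 of 5, *Ifng*, and was lower in the other 4, against 9.17% and 16.0% of all genes. Th1 exceeded Th2 in 1 of 5, *Ifng*, and was lower in 2, *Il17a* and *Il21*, against 27.4% and 16.9%, with *Il22* added to the lower ones by the replicate block. The background leans to one side and moves with the scaling. Of all genes called, 72.6% were higher in Th17 than in Th2, against 53.3% with median scaling and 50.7% with quantile normalization. For Th1 minus Th17 the higher share was 36.5%, against 48.1% and 49.7%, for Th17 minus naive it was 55.7%, against 53.4% and 44.2%, and for Th1 minus Th2 it was 61.8%, against 52.8% and 50.9%. The median over the 5 genes was 8.31 for Th17 minus naive, 7.02 for Th17 minus Th2 and -7.73 for Th1 minus Th17, beside 0.08, 0.18 and -0.08 over all genes tested. For Th1 minus naive, Th2 minus naive and Th1 minus Th2 it was 0.58, 0.62 and -0.50, beside -0.01, -0.11 and 0.11.

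**Figure D3:**
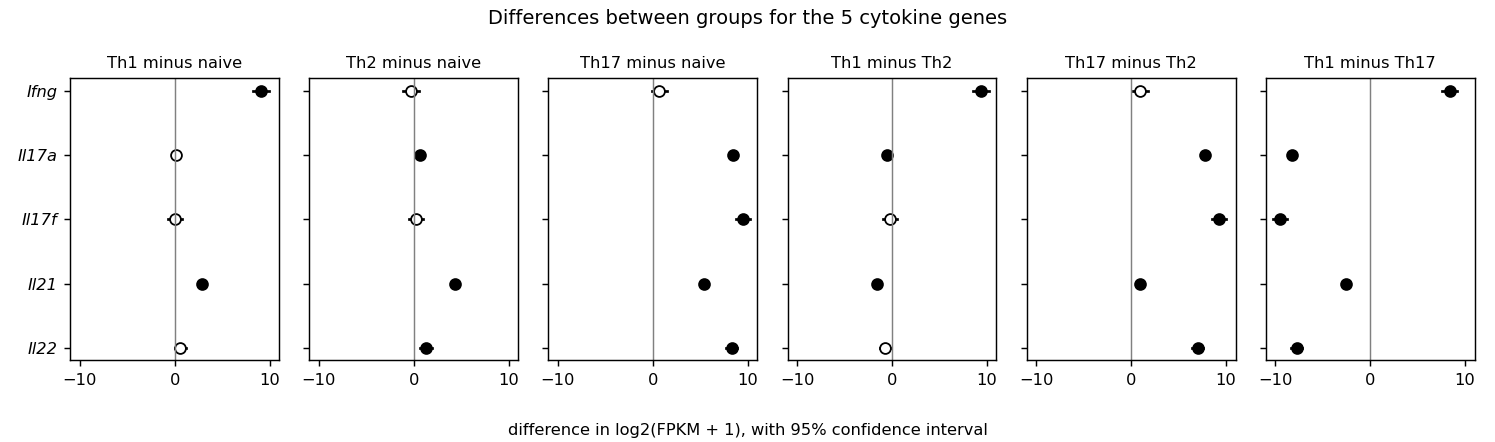
Points give the difference between groups in log2(FPKM + 1) for the 5 genes in each of 6 comparisons, with the 95% confidence interval as a line, which is narrower than the point for several genes. Filled points passed the limma test at an adjusted p under 0.05 and open points did not. Th17 minus naive lies at 8.31 to 9.52 for *Il17a*, *Il17f* and *Il22*, *Ifng* is the one gene on the Th1 side in both comparisons of Th1 with another effector subset, and the open points all lie within 1 of 0.

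Set against the mean of the subset where each gene was highest, the residual level elsewhere was below 1% for 4 of the 5 genes. Over the 6 other libraries it was 0 to 0.309% for *Ifng*, with the highest value in Th17 replicate 2, and 0 to 0.208% for *Il17a*, with the highest in Th2 replicate 1. It was 0.0071 to 0.101% for *Il17f*, with the highest in Th2 replicate 1 too, and 0 to 0.520% for *Il22*, with the highest in Th2 replicate 2. The residual Th17 cytokine RNA was therefore highest in a Th2 library for each of *Il17a*, *Il17f* and *Il22*, although no *Il17f* difference among naive, Th1 and Th2 passed. For *Il21* the residual level ran from 0.0734% in a naive library to 53.6% in a Th2 library. The lowest values of *Il17f*, in Th1 replicate 2, and of *Il21*, in naive replicate 2, rested on 2 implied fragments each. They lie under the 3 fragments that were read as detectable. Of the summed group means, Th1 held 99.8% of *Ifng*, and Th17 held 99.8% of *Il17a*, 99.8% of *Il17f*, 99.4% of *Il22* and 60.6% of *Il21*.

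The index tau is 0 for equal log2(FPKM + 1) in the 4 groups and 1 for a gene found in 1 group alone. Tau was 0.967 for *Il17a*, 0.945 for *Il17f*, 0.943 for *Ifng*, 0.925 for *Il22* and 0.545 for *Il21*. Of the 11198 genes tested, 0.732%, 0.929%, 0.956%, 1.10% and 8.34% had a higher value. Against the mean of the other 3 groups, the own subset was higher by 9.41 for *Il17f*, 8.92 for *Ifng*, 8.14 for *Il17a*, 7.69 for *Il22* and 2.95 for *Il21*, and all 5 differences passed (limma adjusted p = 4.147e-07 to 6.881e-06). As the own subset is the one where the gene was highest, the direction was fixed by that choice. The p-values are therefore given as a description, with nothing further read from them.

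The genes most like each cytokine over the 8 libraries were sought among 7564 genes that reach 10 FPKM in a group, by Pearson's r of log2(FPKM + 1). With 4 groups of 2 libraries such an r mostly records which group is high, and it is given as a description. For *Ifng* they were *Nkg7* (r = 0.9955), which encodes a protein of cytotoxic granules, the microRNA genes *Mir330* and *Mir339*, *P2rx3* and *Tbx21* (0.9880). The microRNA genes rested on 1 implied fragment in each Th1 library. Among the 5 genes most like *Il17a* were *Lum* (0.9995), *Iltifb*, *Dcn* and *2310007L24Rik*, and the same 4 were among those most like *Il17f*, led by *Dcn* (0.9973). *Lum* and *Dcn* encode proteoglycans of the extracellular matrix, and stood at 78.9 and 12.6 FPKM in Th17. Among the 5 most like *Il22* were *Iltifb* (0.9987), *Plaur*, *Lum* and *Ido1*. *Il21*, with its graded pattern, was most like *6430571L13Rik* (0.9958), *Maged2*, *Myb* (0.9944), *Ggt7* and *Fbxw9*. *Myb*, a transcription factor of dividing and immature blood cells, rose from 6.30 FPKM in naive to 25.6 in Th1, 41.0 in Th2 and 60.3 in Th17.

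Of the factors and receptors of the Th1 programme, 11 of 12 genes were tested. Th1 exceeded Th2 in 8 and was lower in 1, with a median of 1.61, against 27.4%, 16.9% and 0.11 over all genes tested. It exceeded Th17 in 6 and was lower in 2, with a median of 0.72, against 9.17%, 16.0% and -0.08. With the replicate block the counts against Th17 were 9 and 2. *Tbx21*, at 45.1 and 50.7 FPKM in Th1, led the comparison with Th17 (4.21, limma adjusted p = 5.124e-06). *Il18r1*, a receptor subunit for IL-18, led that with Th2 (6.18, adjusted p = 1.058e-06) at 122 and 137 FPKM in Th1 against 0.666 and 0.935 in Th2. *Il12rb2*, the signalling subunit of the IL-12 receptor, was at 193 and 233 FPKM in Th1, but Th17 held 110 and 129 and Th2 29.1 and 37.0. *Hlx*, a partner of T-bet, was at 15.4 and 16.6 FPKM in Th1 and higher in Th17, at 19.9 and 20.8 (Th1 minus Th17 -0.33, adjusted p = 0.03465).

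Of the Th17 programme, 13 of 14 genes were tested. Th17 exceeded naive in 9 and was lower in 3, with a median of 1.89, against 37.5%, 29.8% and 0.08 over all genes tested. Th1 was lower than Th17 in 9 and higher in 2, with a median of -0.998, against 16.0%, 9.17% and -0.08. Against Th2, however, Th17 was higher in 6 and lower in 4, with a median of 0.23, beside 31.7%, 12.0% and 0.18 over all genes. The genes on the Th17 side were led by *Il23r* (4.93, limma adjusted p = 8.961e-07), the IL-23 receptor, at 28.9 and 30.3 FPKM in Th17 and 0 in naive and Th2. *Maf*, *Il6st*, *Batf* and *Ahr* were on the Th2 side. *Batf*, a partner of IRF4, was at 356 and 354 FPKM in Th2 and 89.9 and 99.0 in Th17 (-1.90, adjusted p = 2.965e-05). *Maf*, a factor known to act on *Il21* and *Il4*, was at 95.5 and 104 FPKM in Th2 against 8.61 and 6.54 in Th17 (-3.56, adjusted p = 1.943e-05) and 27.5 and 20.5 in Th1.

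The receptors that read these cytokines showed one clear split, between the 2 chains of the IFN-γ receptor. *Ifngr1*, the ligand-binding chain, was at 240 and 238 FPKM in Th1, above all other libraries, which lay between 32.8 and 68.2. *Ifngr2*, the chain needed for signalling, was at 1.55 and 1.19 FPKM in Th1, 15.4 and 16.0 in Th2, 16.2 and 17.8 in Th17 and 41.2 and 37.8 in naive, so Th1 lay below all the others. Th1 exceeded naive by 1.92 for *Ifngr1* (SE 0.136, limma adjusted p = 2.239e-05) and lay below it for *Ifngr2*, at -4.10 (SE 0.108, adjusted p = 3.421e-07). The same directions held against Th2, at 2.67 (adjusted p = 1.687e-05) and -2.82 (adjusted p = 5.86e-06), and against Th17, at 2.12 (adjusted p = 8.509e-05) and -2.93 (adjusted p = 9.158e-06).

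Of the 12 receptor genes, 8 were tested. Th1 exceeded naive in 2 and was lower in 5, with a median of -0.71, against 33.8%, 33.5% and -0.01 over all genes tested. Th2 exceeded naive in 1 and was lower in 6, with a median of -0.70, against 31.8%, 38.7% and -0.11. For Th17 the counts were 2 and 5, with a median of -0.52, against 37.5%, 29.8% and 0.08. *Il17ra*, the common chain of the IL-17 receptors, was at 81.5 and 97.7 FPKM in naive and fell to 33.2 and 38.0 in Th1, to 19.5 and 20.4 in Th2 and to 29.0 and 32.5 in Th17. *Il17re*, whose product pairs with IL-17RA to bind IL-17C, was at 3.43 and 3.88 FPKM in Th17 and at most 0.948 elsewhere (Th17 minus naive 2.14, limma adjusted p = 9.557e-06). *Il17rc*, the partner chain for IL-17A and IL-17F, reached at most 0.320 FPKM. *Il21r* was present in every library at 75.2 to 132 FPKM and *Il2rg*, the common γ chain it pairs with, at 252 to 416. *Il22ra1*, the specific chain of the IL-22 receptor, was listed at 0 in all 8 libraries, while *Il10rb*, its partner, was at 10.8 to 24.7 FPKM.

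Genes known to be induced by IFN-γ were described as a list of 20, of which 17 were tested. Th1 exceeded Th2 in 16 and was lower in 1, with a median of 1.68, against 27.4%, 16.9% and 0.11 over all genes tested. It exceeded Th17 in 13 and was lower in 0, with a median of 1.04, against 9.17%, 16.0% and -0.08. With the replicate block the counts against Th17 were 15 and 1. The count higher in Th1 than in Th2 was 15 under quantile normalization and 16 under median scaling. The guanylate-binding protein *Gbp7* stood at 72.2 and 70.5 FPKM in Th1, at 4.40 and 3.98 in Th2 and at 18.5 and 18.2 in Th17 (Th1 minus Th2 3.80, limma adjusted p = 8.854e-06). The immunity-related GTPase *Iigp1* stood at 17.3 and 21.2 FPKM in Th1, at 0.060 and 0.295 in Th2 and at 0.459 and 0.636 in Th17 (Th1 minus Th17 3.71, adjusted p = 0.0002725). *Socs1*, an inhibitor of cytokine signalling that other cytokines induce as well, was the exception, with Th1 minus Th2 at -0.56 (adjusted p = 0.04782).

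Naive cells, whose *Ifng* was at 0.218 and 0.437 FPKM, did not follow the same order. Th1 exceeded naive in 6 and was lower in 7, with a median of -0.38, against 33.8%, 33.5% and -0.01 over all genes tested. Th2 was lower than naive in 16 of 17 and higher in 1, with a median of -2.22, against 38.7%, 31.8% and -0.11. Th17 was lower in 12 and higher in 1, with a median of -1.40, against 29.8%, 37.5% and 0.08. *Irf1*, a transcription factor induced by interferons, was at 208 and 233 FPKM in naive, at 75.9 and 88.8 in Th1, at 25.1 and 25.5 in Th2 and at 18.9 and 20.7 in Th17. *Igtp* was at 248 and 348 FPKM in naive and 414 and 439 in Th1, against 95.7 and 88.8 in Th2. Th2 and Th17 cultures, which held an anti-IFN-γ Ab, and Th1 cultures, which did not, differ in the antibody and the cytokines added together, so these cannot be told apart.

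**Figure D4:**
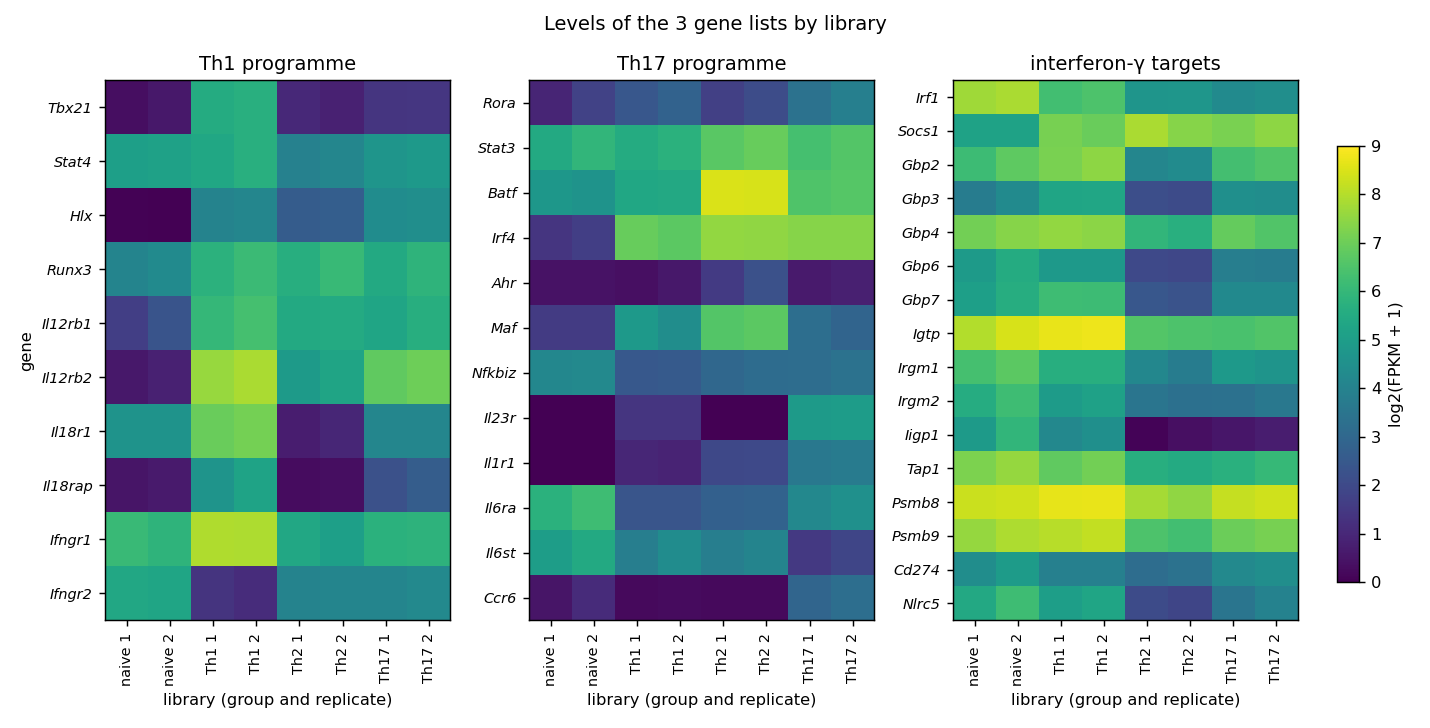
Colour gives log2(FPKM + 1) in each of the 8 libraries (columns) for the tested genes reported here (rows) of the Th1 programme, the Th17 programme and the genes induced by IFN-γ. *Ifngr2* is dark in Th1 where *Ifngr1* is bright, *Il23r* and *Ccr6* are bright in Th17 alone, *Batf* and *Maf* are brightest in Th2, and most genes of the last panel are bright in naive and Th1 and dark in Th2.

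Genes in the regions around the cytokine genes did not all follow them. *Paqr8*, which lies 100.0 kb from *Il17f*, was at 7.15 and 7.07 FPKM in Th17 and at 0.718 to 0.971 in the other libraries (Th17 minus naive 2.23, limma adjusted p = 2.618e-06, and Th17 minus Th2 2.14, adjusted p = 2.312e-05). *Pkhd1*, 112.8 kb from *Il17a* on its other side, was at 1.02 and 0.908 FPKM in Th17 and at most 0.023 elsewhere, and was below the filter for testing. *Mcm3*, a replication factor only 12.4 kb from *Il17f*, was instead higher than naive in all 3 subsets, at 52.8 to 86.8 FPKM against 13.7 and 14.8. *Dyrk2*, 409.7 kb from *Ifng*, was at 23.2 and 29.1 FPKM in Th1 and 4.60 to 6.61 in Th2 and Th17, but at 35.3 and 47.4 in naive cells. The nearer *Mdm1*, 272.0 kb from *Ifng*, was at 5.67 and 5.88 FPKM in Th1 and 5.14 and 5.40 in Th17. It was at 3.64 and 3.66 FPKM in Th2 and 2.11 and 2.63 in naive cells. *Il2*, 96.8 kb from *Il21*, was at or below 0.795 FPKM in every library, and *Adad1*, on its far side, was listed at 0 in all 8.

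None of the other IL-17 family genes reached the filter for testing, and *Il17c* was highest among *Il17b*, *Il17c*, *Il17d* and *Il25*, at 0.875 and 1.46 FPKM in naive cells. Among other T cell cytokines, 8 of 11 were tested. *Lta*, which encodes lymphotoxin-α, was shared by the 2 subsets that carry the cytokines followed here, at 412 and 372 FPKM in Th1 and 365 and 358 in Th17 against 26.3 and 26.6 in Th2. *Il24*, a relative of *Il22* in the IL-10 family, was at 139 and 112 FPKM in Th1, at 418 and 374 in Th2 and at 333 and 335 in Th17, so unlike *Il22* it was not restricted to Th17. *Il10* was at 160 and 116 FPKM in Th2, 43.7 and 38.1 in Th1 and 0.901 and 0.827 in Th17. *Il4* and *Il13*, the Th2 cytokines, were at 5.003 in both and at 7.09 and 11.99 FPKM in the Th17 libraries, against 129 and 97.6 and 150 and 143 in Th2.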

How the data were processed

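RNA sequencing libraries of naive CD4 T cells and effector Th1, Th2 and Th17 cells were compared, with 2 libraries in each of 4 groups taken from the sample labels. Per the labels and the submitters' processing notes, the authors aligned reads to mm10 with Bowtie 0.12.8 and TopHat 1.3.2 and deposited FPKM per gene with a confidence interval from Cufflinks 2.0.2. The gene annotation is not given in the sources used here, and the methods and the labels name library kits that differ in keeping the strand. Files without read counts were deposited, so fragments behind a value were estimated as the squared ratio of FPKM to the standard error that the interval implies, which covers counting error only. Values of a repeated symbol were summed. Genes with a mean of at least 1 FPKM were fitted on log2(FPKM + 1) with limma 3.58.1 in R 4.3.3 (4 group means, all 8 libraries, mean-variance trend, two-sided tests), and p-values were adjusted by Benjamini-Hochberg over the 11198 genes tested with a threshold of 0.05. The fit was tested on simulated data. Deviations of same-numbered libraries from their group means correlated at r = 0.138 to 0.294 across genes in all 6 pairs of groups. The replicate numbers in the labels were therefore used to pair the libraries in an alternative fit, the replicate block. Unless the block is named, p-values come from fits without this pairing. Alternatives were another pseudocount (0.1), no filter or one of 5 FPKM, median scaling, quantile normalization, no trend, the replicate block, the largest value of a repeated symbol, the 2 groups alone and each library left out. After the data had been seen, further ones were added: genes with an estimation status of OK throughout, *Il22* and *Iltifb* summed, and voom on the implied fragments. Positions came from GENCODE M21 and promoters from RefSeq, read with Python 3.11.15, pandas 2.3.3, numpy 2.4.6 and Biopython 1.88, and figures were drawn with matplotlib 3.10.9. Of 20823 genes matched by symbol, 99.45% overlapped their GENCODE gene. The 5 genes and all lists were chosen with earlier results of these data known. The rule named all 5 genes, the list genes called with the largest and smallest differences or whose role is explained, and for likeness the 5 genes of highest r. Some genes of the lists, counted among their members, and 1 motif searched are not reported here.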

Additional observations from a re-analysis of the deposited data

Results flagged for a closer look

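Levels differed between effector subsets in 12 direct tests by limma with Benjamini-Hochberg adjustment, all on the log2(FPKM + 1) scale. The naive means do not enter these differences. For *Ifng*, Th1 minus Th2 was 9.35 and Th1 minus Th17 was 8.36. For *Il17f*, Th17 minus Th2 was 9.25 and Th1 minus Th17 was -9.47. For *Il22*, Th17 minus Th2 was 7.02 and Th1 minus Th17 was -7.73. For *Il17a*, Th17 minus Th2 was 7.76, Th1 minus Th17 was -8.27 and Th1 minus Th2 was -0.50, the last from values under 1 FPKM. For *Il21*, Th17 minus Th2 was 0.99, Th1 minus Th2 was -1.54 and Th1 minus Th17 was -2.52. Not passing were *Ifng* Th17 minus Th2 (0.99, limma adjusted p = 0.05841) and Th1 minus Th2 for *Il17f* (-0.23, adjusted p = 0.5862) and *Il22* (-0.71, adjusted p = 0.05428). Of all genes tested, 27.4% and 16.9% were called higher and lower for Th1 minus Th2. The shares were 31.7% and 12.0% for Th17 minus Th2, and 9.17% and 16.0% for Th1 minus Th17. With 2 libraries in a group, no test for a single deviating library was made.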

How the results depend on the processing

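Of 695 values of a member's difference under an alternative, 658 kept their direction and side of the threshold, 19 passed where the reported one did not, 6 no longer passed and 12 changed sign. All changes concern differences between groups outside the subset where the gene was highest, and the differences of *Il21* and of *Ifng*, *Il17a*, *Il17f* and *Il22* between their own subset and another group are among those kept. With quantile normalization, Th1 minus naive was -0.22 for *Il17a* and -0.64 for *Il17f*, Th2 minus naive was -0.41 for *Il17f*, -0.93 for *Ifng* (now passing) and 0.22 for *Il17a* (no longer passing), Th17 minus naive was -0.24 for *Ifng*, and Th1 minus Th2 was -0.44 for *Il17a* (no longer passing). With a pseudocount of 0.1, Th1 minus naive was -0.052 for *Il17f* and 2.56 for *Il22*, Th1 minus Th2 was -1.38 for *Il22* and Th17 minus Th2 was 2.76 for *Ifng*, the last 3 passing. With voom, Th1 minus naive was -0.33 for *Il17f* and 4.26 for *Il22* (passing), and Th1 minus Th2 was -3.19 for *Il17a* (no longer passing), as it was at -0.50 with no filter. *Il22* Th1 minus naive passed at 0.58 with the replicate block or the 2 groups alone and at 0.74 with *Iltifb* added. *Il22* Th1 minus Th2 passed at -0.71 with the replicate block or the 2 groups alone, at -0.77 with median scaling and at -0.92 with *Iltifb* added. *Ifng* Th17 minus Th2 passed at 0.98 with the replicate block, and beside these 3 differences the block changed no other call of the 5 genes. The count of members lower in Th2 than in naive was 1 with quantile normalization in place of 0, and that lower in Th1 than in Th2 was 1 in place of 2 with quantile normalization, no filter or voom. Apart from the alternative's own construction, the cause was not tested.

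Leaving out 1 library at a time gave a range of 0.41 to 1.56 for *Ifng* Th17 minus Th2, 0.12 to 1.27 for *Ifng* Th17 minus naive, -0.032 to 0.27 for *Il17a* Th1 minus naive, -0.65 to -0.35 for *Il17a* Th1 minus Th2, -0.34 to 0.43 for *Il17f* Th1 minus naive, -0.02 to 0.56 for *Il17f* Th2 minus naive, -0.62 to 0.16 for *Il17f* Th1 minus Th2, 0.57 to 0.58 for *Il22* Th1 minus naive, -0.86 to -0.56 for *Il22* Th1 minus Th2, and 1 to 3 for the members lower in Th1 than in Th2. Where this leaves 1 library in a group, it is assumed to vary like the other groups. Of 180 counts for the gene lists, 13 differed from the reported count by over 1.5 times. The median of all genes tested moved to between -0.13 and 0.03 under the scalings, from -0.11 to 0.18. Over all genes tested, Th17 exceeded Th2 in 3546 and was lower in 1339, against 2303 and 2018 once medians were equalized or 2255 and 2191 once quantiles were, and Th1 was lower than Th17 in 1788, against 1047 with a filter of 5 FPKM, which tests fewer genes. Depth limits values under about 3 fragments, which cannot be told from 0.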
